A study of Danio rerio with 6 samples.

Results

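Lens crystallins were examined in RNA-seq libraries of zebrafish larvae at 5 dpf. The crystallins were taken by name, as every gene whose symbol in the deposited table begins with cryaa, cryab, cryba, crybb or cryg, which gave 57 genes of 39214. They comprised 3 alpha crystallins, 7 acidic beta crystallins, 6 basic beta crystallins, 35 gammaM crystallins, 2 gammaN crystallins and 4 gammaS crystallins. The control group and the Lurasidone group had 3 libraries each, all from AB wild type larvae of 5 dpf, and the labels give an exposure of the Lurasidone group to 4 mg/L Lurasidone from 3 hpf on, whereas the methods of the study give a later start. Lurasidone is an antipsychotic drug that blocks dopamine and serotonin receptors. The methods describe the controls as kept in the solvent dimethyl sulfoxide, the larvae as unfed and the replicates as separate. They state that whole larvae were collected and also that the RNA came from brain tissue, while the labels name larvae. The table held high levels of genes of other organs, since the summed FPKM of 11 fast muscle genes lay between 14650 and 24370, and lens genes were present in every library.

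Crystallins are the soluble proteins that fill the fibre cells of the lens and give it its clarity and refractive power. The alpha crystallins are small heat shock proteins that act as chaperones. The beta and gamma crystallins share a compact fold and serve mainly as structural proteins, and the acidic and basic beta crystallins assemble with each other. The gammaM crystallins are a fish group of methionine-rich proteins, encoded by many similar genes and abundant in the hard fish lens. Fibre cells make crystallin mRNA in large amounts as they differentiate at the lens equator, so that in RNA of many organs these genes report on lens fibre cells. In such mixed RNA, fewer lens cells and less crystallin mRNA per cell cannot be told apart.

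Libraries held between 11749887 and 15107664 fragments on genes. FPKM, the fragments of a gene scaled by the length of its model and by a denominator for the library, is a level per length and permits comparison between genes. The replicates are given in the order 1, 2, 3. Of the 57 crystallins, 41 reached 0.5 FPKM in at least 3 libraries and were tested together with all other such genes, 23409 in all. At an adjusted p not above 0.05 (limma), 5.79% of all tested genes were higher in the Lurasidone group and 3.9% were lower, against which the counts of crystallins are read. Control replicate 3 stood apart for the crystallins, as described first, and the comparison of the groups is therefore given with and without it. That library was singled out for its low crystallin values, so leaving it out lowers most crystallin fold changes by construction. For the crystallins, the adjusted p-values of that fit are therefore a description.

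Crystallins made up 0.515% of the fragments in control replicate 1 (Wilson 95% interval 0.511% to 0.518%). In control replicate 2 the share was 0.751% (0.746% to 0.756%). It was 0.177% (0.175% to 0.179%) in control replicate 3. The lowest and the highest control library were thus far apart relative to counting error, which is all that these intervals cover. Lurasidone replicate 1 had a share of 0.702% (0.698% to 0.707%). The share of Lurasidone replicate 2 was 0.426% (0.422% to 0.43%). Lurasidone replicate 3 had the highest share of the 6 libraries, 0.764% (0.759% to 0.769%). The groups overlapped, with means of 0.481% ± 0.288 (SD, n = 3) in the control group and 0.631% ± 0.18 (SD, n = 3) in the Lurasidone group. The mean of control replicates 1 and 2 alone was 0.633%.

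Summed crystallin FPKM ordered the control libraries in the same way. The sums were 4120, 6220 and 1342 in the control group and 5008, 3118 and 4968 in the Lurasidone group. Control replicate 2 was the highest library by this sum, whereas Lurasidone replicate 3 was the highest by share of fragments. Lurasidone replicates 1 and 3 changed places, and control replicate 3 was the lowest library by either measure. Group means were 3894 ± 2447 and 4365 ± 1080 (SD, n = 3). The 2 libraries left in the control group without replicate 3 had a mean of 5170, so that the order of the group means turned when that library was left out. The summed FPKM of all genes also differed between libraries. As a percentage of it, the crystallin means were 1.086% in those 2 libraries and 1.083% in the Lurasidone group, and thus nearly equal. The number of fragments on genes in control replicate 3, 12276511, was close to that of control replicate 2, 12210400. Fragments on genes in control replicate 3 came to 84.5% of its FPKM denominator, the lowest of the 6 libraries, against 87.6% to 104% in the others. The highest, 104%, was that of control replicate 2. The denominator was thus not the number of fragments on genes, and how it was set is not given. Relative to fragments on genes it lowers the FPKM of control replicate 3 and raises those of control replicate 2. The shares of fragments do not use it.

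**Figure D1:**
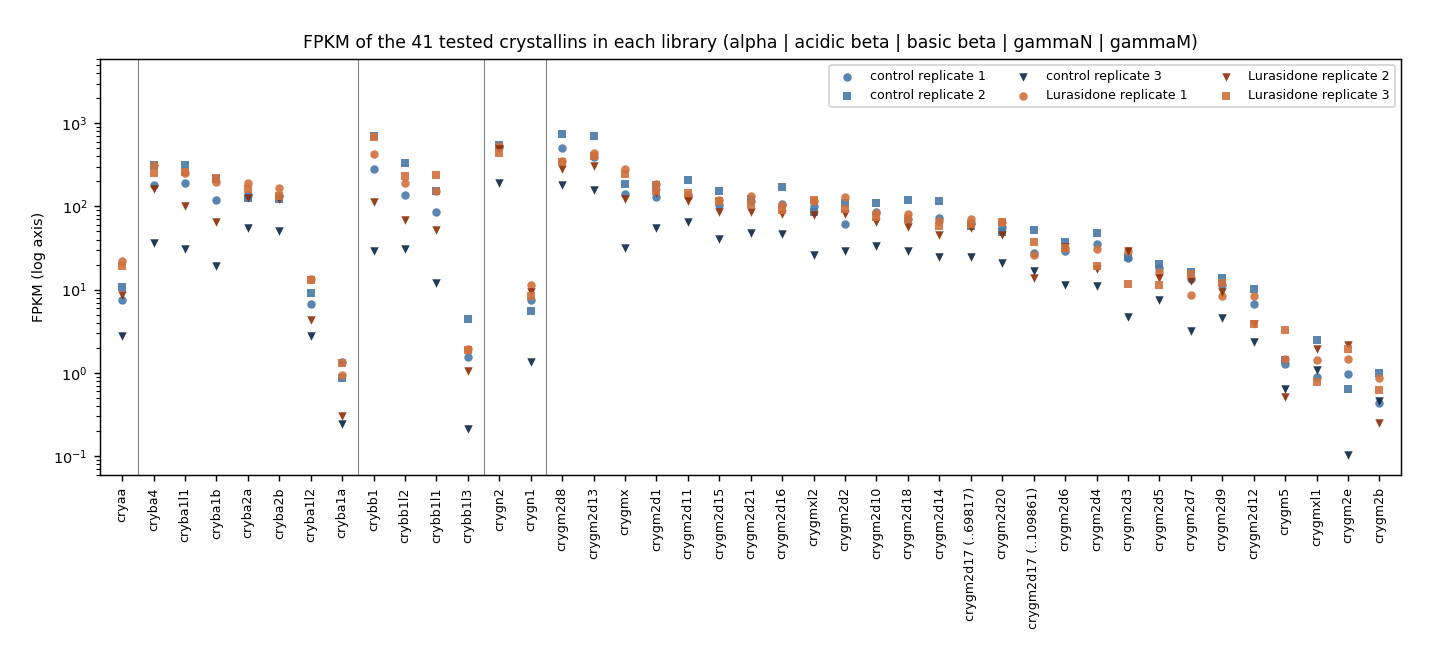
FPKM (log axis) of each of the 41 tested crystallins in each of the 6 libraries, ordered by subfamily and then by mean level, with 1 marker per library (control in blue, Lurasidone in orange and brown). Control replicate 3, the dark triangle, is the lowest of the 6 libraries for 37 of the 41 genes, and the last digits of the gene identifier tell the pair of genes named crygm2d17 apart.

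The gammaM crystallins supplied the largest part of crystallin FPKM in every library. Their part was 56.2%, 54.0% and 65.3% in the control group and 50.6%, 57.5% and 46.3% in the Lurasidone group. Acidic beta crystallins supplied 18.5%, 17.6% and 14.5% in the control group and 22.6%, 18.7% and 21.1% in the Lurasidone group. For the acidic beta part all Lurasidone libraries were above all control libraries, by a margin of less than 1 percentage point between the nearest libraries. Of the subfamilies with tested members, the basic beta crystallins varied most relative to their level, with 12.3%, 19.2% and 5.4% in the control group and 15.3%, 7.56% and 23.2% in the Lurasidone group. Their part was lowest in control replicate 3 and in Lurasidone replicate 2, the same libraries that had the lowest summed crystallin FPKM of their groups. The gammaN part was 12.8%, 8.96% and 14.5% against 11%, 15.9% and 8.93%, and it was highest in those libraries. Alpha crystallins stayed below 0.5% of crystallin FPKM in each library. The gammaS crystallins, known in mammals as structural proteins of the lens cortex, were nearly undetected.

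Among the alpha crystallins, only cryaa was tested. The gene cryaa (chromosome 1, 29096881 to 29100923, GRCz11) encodes alpha A crystallin, the lens chaperone. In the control group cryaa had FPKM of 7.43, 10.9 and 2.77, and in the Lurasidone group 21.9, 8.63 and 19.1. Lurasidone replicates 1 and 3 were above all controls, whereas replicate 2 lay between control replicates 1 and 2, so that the groups overlapped. The log2 fold change on the log2(FPKM + 1) scale was 1.18 (limma, SE 0.43, 95% interval 0.23 to 2.14, adjusted p = 0.11), and it was 0.71 without control replicate 3 (adjusted p = 0.21). With all libraries kept, cryaa passed the threshold in limma voom on fragments (1.37, adjusted p = 0.044) and under equal summed FPKM of the other genes (1.31, adjusted p = 0.045). It also passed in limma without control replicate 3 and Lurasidone replicate 2 (1.10, adjusted p = 0.041). Those libraries were the lowest of cryaa in their groups and were left out after seeing the data. That call is therefore no independent support for a rise. The remaining alpha crystallins, cryaba and cryabb, encode alpha B crystallins, which in mammals are found in lens, muscle and other tissues. The cryaba gene had 1, 0 and 0 fragments in the control group and 0, 2 and 2 in the Lurasidone group. For cryabb the fragments were 2, 0 and 8 in the control group and 2, 0 and 0 in the Lurasidone group. At this depth no difference in either could be measured.

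All 7 acidic beta crystallins were tested and none passed the threshold. Their log2 fold changes were all positive with 6 libraries, with a median of 0.62, while without control replicate 3 the median was -0.01, with 3 positive and 4 negative. The highest mean level was that of cryba4, with FPKM of 179, 312 and 36.1 in the control group and 311, 163 and 253 in the Lurasidone group. Control replicate 3 was lowest and control replicate 2 highest, so that the Lurasidone values lay inside the control range. For cryba4 the log2 fold change was 0.88 (limma, 95% interval -0.56 to 2.31, adjusted p = 0.40) and -0.01 without control replicate 3. The next gene, cryba1l1, had FPKM of 189, 314 and 30.7 in the control group and 252, 101 and 261 in the Lurasidone group. The range of cryba1l1 in the control group again enclosed every Lurasidone value, and its log2 fold change of 0.61 (adjusted p = 0.61) became -0.37 without control replicate 3. For cryba1b the FPKM were 119, 212 and 19.2 in the control group and 197, 64.6 and 221 in the Lurasidone group, with a log2 fold change of 0.83 that became -0.16 without control replicate 3.

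The pair cryba2a and cryba2b, described here after their values were seen, varied less than the other abundant acidic beta crystallins. FPKM of cryba2a were 137, 126 and 54.9 in the control group and 193, 128 and 162 in the Lurasidone group. Those of cryba2b were 132, 124 and 51.2 in the control group and 165, 123 and 135 in the Lurasidone group. For both genes control replicates 1 and 2 were close together, control replicate 3 was the lowest library, and the groups overlapped. In cryba2a the log2 fold change was 0.69 (limma, 95% interval -0.04 to 1.42, adjusted p = 0.20) and 0.27 without control replicate 3. The low members of the group were cryba1l2, between 2.77 and 13.3 FPKM, and cryba1a, between 0.242 and 1.34 FPKM.

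Of the 6 basic beta crystallins 4 were tested, and none passed the threshold. The subfamily had the widest spread within groups of all subfamilies with tested members. The gene crybb1, which encodes the major basic beta crystallin of these libraries, had FPKM of 284, 703 and 29.4 in the control group and 423, 114 and 680 in the Lurasidone group. The highest control value of crybb1 was 23.9 times the lowest, and in the Lurasidone group the ratio was 5.99. Its log2 fold change was 0.81 with an interval of -1.46 to 3.09 (limma, adjusted p = 0.63), and -0.48 without control replicate 3. For crybb1l2 the FPKM were 136, 332 and 30.6 in the control group and 190, 68.5 and 231 in the Lurasidone group. The log2 fold change of crybb1l2 was 0.37 (adjusted p = 0.78) and turned to -0.55 without control replicate 3. FPKM of crybb1l1 were 85.6, 155 and 12 in the control group and 152, 52.4 and 242 in the Lurasidone group. Lurasidone replicate 3 was the highest library for crybb1l1, and the groups overlapped, with a log2 fold change of 1.17 (95% interval -0.69 to 3.02, adjusted p = 0.39) and of 0.11 without control replicate 3.

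The low basic beta gene crybb1l3 had FPKM of 1.56, 4.42 and 0.213 in the control group and 1.91, 1.04 and 1.87 in the Lurasidone group, and its log2 fold change was 0.01. In crybb1l3 too control replicate 3 was the lowest library. The genes crybb2 and crybb3 did not pass the filter. For crybb2, whose mammalian counterpart is a major lens protein after birth, 7, 2 and 5 fragments were counted in the control group and 0 in each Lurasidone library, where 3 fragments would be the limit that a count of 0 allows. The groups of crybb2 did not overlap, but the gene was outside the test and its counts were few. At most 6 fragments were counted for crybb3 in any library.

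Both gammaN crystallins, a pair regarded as an early branch between the beta and gamma crystallins, were tested. The gene crygn2 (chromosome 24) was among the most abundant crystallins, with FPKM of 519, 552 and 193 in the control group and 540, 487 and 435 in the Lurasidone group. Apart from control replicate 3, all libraries of crygn2 were between 435 and 552 FPKM. For crygn2 the log2 fold change was 0.35 (limma, 95% interval -0.47 to 1.17, adjusted p = 0.56) and -0.14 without control replicate 3. The low member crygn1 (chromosome 2) had FPKM of 7.52, 5.52 and 1.34 in the control group and 11.5, 9.31 and 8.38 in the Lurasidone group. Every Lurasidone library was above every control library for crygn1. Its log2 fold change was 1.07 (SE 0.40, 95% interval 0.17 to 1.97), which did not pass the threshold (adjusted p = 0.12) with all libraries or without control replicate 3 (0.52, adjusted p = 0.13).

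Of the 35 gammaM crystallins 27 were tested. The highest means were those of crygm2d8, crygm2d13 and crygmx. FPKM of crygm2d8 were 500.5, 749 and 182 in the control group and 355, 283 and 346 in the Lurasidone group. With all libraries the control range enclosed the Lurasidone values, and the log2 fold change of crygm2d8 was -0.32 (limma, 95% interval -1.29 to 0.64, adjusted p = 0.66). Without control replicate 3 it was -0.91 (limma, 95% interval -1.39 to -0.42, adjusted p = 0.032). In that fit crygm2d8 was the only crystallin that passed the threshold, and 5.85% of all tested genes were lower. The library left out was the lowest control of crygm2d8, so this call is no independent support for a fall. For crygm2d13 the FPKM were 397, 709 and 156 in the control group and 442, 308 and 399.7 in the Lurasidone group. On the log2 scale crygm2d13 differed by 0.10 (adjusted p = 0.91) and -0.48 without control replicate 3 (adjusted p = 0.26). FPKM of crygmx were 142, 187 and 31.7 in the control group and 284, 123 and 247 in the Lurasidone group. Lurasidone replicates 1 and 3 exceeded all controls for crygmx and replicate 2 did not, with a log2 fold change of 1.11 (95% interval -0.19 to 2.41, adjusted p = 0.24) and of 0.33 without control replicate 3.

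The one crystallin that rose with all 6 libraries was crygm2e, a gammaM gene of low level. FPKM of crygm2e were 0.980, 0.643 and 0.104 in the control group and 1.47, 2.14 and 1.94 in the Lurasidone group. These values rest on 10, 5 and 1 fragments in the control group and 13, 19 and 17 in the Lurasidone group. All Lurasidone libraries were above all control libraries. The log2 fold change of crygm2e was 0.89 (limma, SE 0.24, 95% interval 0.35 to 1.42, adjusted p = 0.046), and the call was lost without any one of the 6 libraries (adjusted p between 0.061 and 0.14), at 0.65 without control replicate 3 (adjusted p = 0.081). At this level the value depended on the scale, since the ratio of the group means was 3.21 and the log2 fold change was 1.82 with a pseudocount of 0.1 (adjusted p = 0.084) and 1.97 in limma voom on fragments (adjusted p = 0.10), neither of which passed. Most gammaM members lay between these extremes of level. The genes crygm2d4, crygm2d14, crygm2d18, crygm2d7, crygm2d3 and crygm2d12 varied more than 4-fold among the control libraries, with the lowest value in control replicate 3 in each case. In the Lurasidone group crygm5 had the widest range of the 41 tested crystallins, with FPKM of 1.49, 0.513 and 3.29 and a ratio of 6.41, on 26, 9 and 57 fragments.

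The 16 crystallins outside the test were low in both groups. The genes crygs2, crygs3, crygs4 and crygm6 had no fragment in any library, which need not mean that they were silent, since the aligner is not given. The model of crygs4 lies wholly within those of crygs3 and crygm3 (824 bases each), and that of crygm3 wholly within that of crygs3 (7401 bases). Fragments in such overlaps could be counted for another gene or for none, since the counter is not given either. A further 8 had at most 3 fragments in each library, and the highest value among all 16 was 1.865 FPKM, on 15 fragments, for crygm2c in Lurasidone replicate 2. In crygm2c the Lurasidone fragments were 2, 15 and 9 and the control fragments 2, 3 and 2, so that the groups overlapped. The gammaM genes crygm1, crygm2a, crygm2f, crygm3, crygm4 and crygm7 never exceeded 3 fragments, and crygs1 had 2 fragments in 1 library.

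Counted over the tested crystallins, 1 of 41 was called higher in the Lurasidone group (limma, adjusted p not above 0.05), against 5.79% of all tested genes. None was lower, against 3.9% of all tested genes, and none had in addition a log2 fold change of at least 1, against 3.83% of all tested genes in either direction. An unadjusted p not above 0.05 was found for 3 crystallins (crygm2e, cryaa and crygn1), against 28.2% of all tested genes. Every Lurasidone library was above every control library for 2 crystallins, crygn1 and crygm2e, whereas this held for 17.1% of all tested genes. The reverse order was found for no tested crystallin, against 16.2% of all tested genes. The spread behind these tests was wide in the control group, where the SD of log2(FPKM + 1) had a median of 0.891 over the 41 crystallins and of 0.218 over all tested genes, and smaller in the Lurasidone group, at 0.298 and 0.208.

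The median log2 fold change of the 41 crystallins was 0.35 with all libraries, with 32 positive and 9 negative values, beside a median of -0.02 over all tested genes. Without control replicate 3 the median was -0.16, with 14 positive and 27 negative values. Without control replicate 2, the highest library for 23 crystallins, the median was 0.71 and all 41 values were positive, none of them called. That library also differed in its share of mitochondrial fragments, 1.41% against 3.6% to 4.26% in the other 5, and the part of this in its crystallin values was not tested. In the fit without control replicate 3 none was called higher, against 5.91% of all tested genes, and crygm2d8 was called lower, against 5.85% of all tested genes. By subfamily the median moved from 0.62 to -0.01 in the acidic beta, from 0.59 to -0.51 in the basic beta, from 0.14 to -0.24 in the gammaM and from 0.71 to 0.19 in the gammaN crystallins. With all 6 libraries the intervals of 38 tested crystallins included 0, and the medians of the beta and gammaM subfamilies turned from positive to negative when control replicate 3 was left out.

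**Figure D2:**
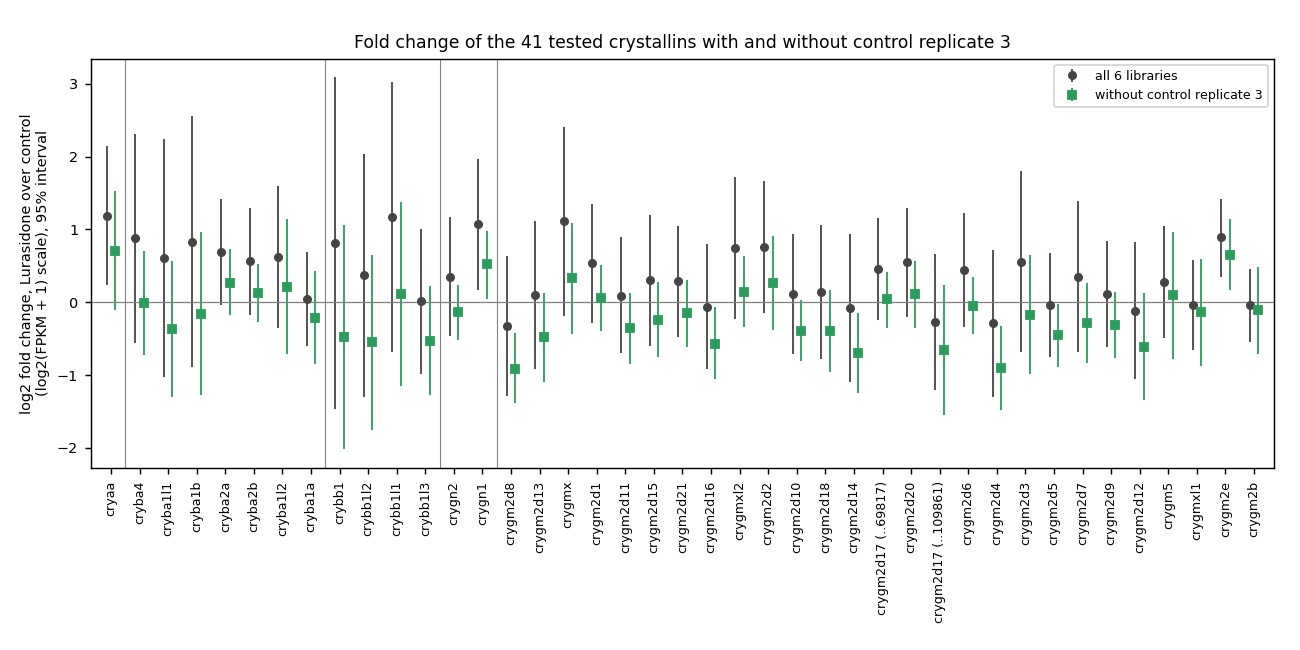
Log2 fold change of Lurasidone over control with its 95% interval (limma, log2(FPKM + 1) scale) for the 41 tested crystallins, with all 6 libraries (grey circles) and without control replicate 3 (green squares). The median of the points is 0.35 with all libraries and -0.16 without control replicate 3, and most intervals include 0.

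Control replicate 3 was the lowest of the 6 libraries for 37 of 41 tested crystallins and the lowest control for 39. Over all 23409 tested genes it was the lowest library for 12.7%. Lurasidone replicate 2 was the lowest library for 3 crystallins and Lurasidone replicate 3 for 1. Within the Lurasidone group replicate 2 was lowest for 31 of 41 and replicate 1 highest for 26. Control replicate 2 was the highest of the 6 libraries for 23 crystallins.

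The highest control value exceeded the lowest by more than 2-fold in 41 of 41 tested crystallins, against 21.1% of all tested genes. The ratio of these values had a median of 3.89 among the crystallins (range 2.27 to 23.9) and of 1.49 among the 22967 tested genes with a ratio. Genes at 0 in the lowest library of a group have no ratio. They were counted as not exceeding 2-fold, so the shares given here for all tested genes are lower limits. In the Lurasidone group the median ratio was 1.55 (range 1.03 to 6.41) against 1.44, and 15 of 41 crystallins exceeded 2-fold, against 19.6% of all tested genes. Between control replicates 1 and 2 alone the median ratio was 1.47, against 1.26. The spread of the crystallins thus lay largely in 1 library of the control group, with a smaller excess that remained between the others.

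For the 35 crystallins whose mean reached 5 FPKM, each library was divided by the geometric mean of the other 2 libraries of its group. In control replicate 3 this ratio had a median of 0.318 (range 0.0658 to 0.434), and it was at most 0.5 in 35 of 35, against 2.23% of 9724 other genes of that level. The ratio in Lurasidone replicate 2 had a median of 0.724 (range 0.212 to 1.58) and was at most 0.5 in 9 of 35, against 2.09% of the other genes. These libraries were low to different degrees in the subfamilies. In control replicate 3 the median ratio was 0.104 for 3 basic beta crystallins, 0.252 for 6 acidic beta crystallins, 0.284 for 2 gammaN crystallins and 0.342 for 23 gammaM crystallins. In Lurasidone replicate 2 it was 0.273 for the basic beta, 0.486 for the acidic beta, 0.747 for the gammaM and 0.977 for the gammaN crystallins. The basic beta crystallins were lowest in both libraries, and the gammaN crystallins were low in control replicate 3 and near 1 in Lurasidone replicate 2.

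**Figure D3:**
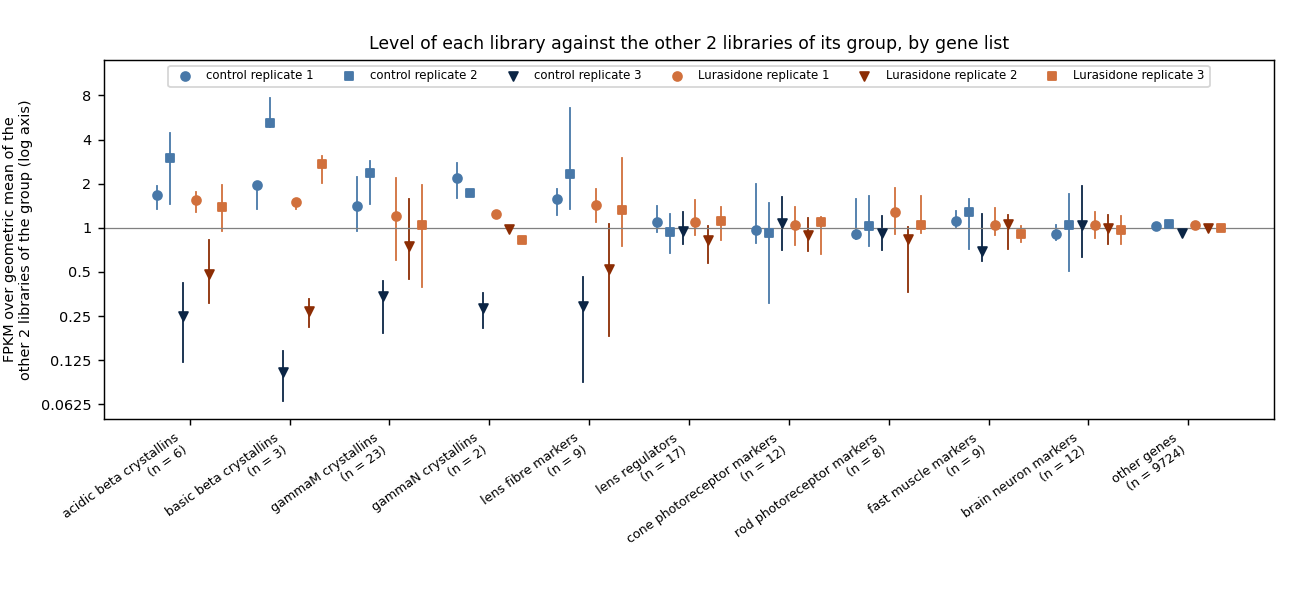
FPKM of each library divided by the geometric mean of the other 2 libraries of its group (log axis), for the crystallin subfamilies, lens and other gene lists and 9724 other genes, with genes of at least 5 FPKM on average. Markers are medians and lines run from the lowest to the highest gene (no line for the other genes), and control replicate 3 (dark triangle) lies at medians of 0.104 to 0.342 in the crystallin subfamilies and 0.295 in the lens fibre markers, against 0.926 in the other genes.

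Across the 35 crystallins, the ratios of these libraries (log2) had a Pearson's r of 0.61 and a Spearman's rho of 0.40, given as a description, since the genes share the same libraries. Within the 23 gammaM crystallins the values were -0.20 and 0.03. The genes low in both libraries included crybb1, crybb1l1, crybb1l2, cryba1l1 and cryba1b. Among the other pairings of a control with a Lurasidone library, Pearson's r was 0.62 for control replicate 2 with Lurasidone replicate 3 and -0.71 for control replicate 2 with Lurasidone replicate 2, and the ratios of a group depend on each other, since each library enters the ratios of the others. The gene crygm2d3 differed from these, since it was low in control replicate 3 (4.68 FPKM against 24.1 and 24.9) and high in Lurasidone replicates 1 and 2 (29.4 and 29.3 against 11.7 in replicate 3). Over the 9724 other genes Pearson's r was 0.25.

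**Figure D4:**
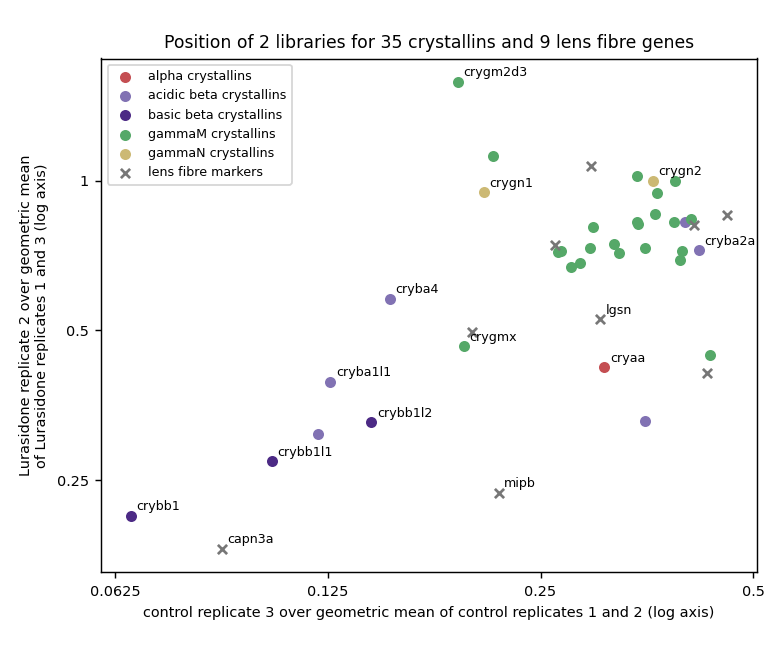
Ratio of control replicate 3 to the other controls (horizontal, log axis) against the ratio of Lurasidone replicate 2 to the other Lurasidone libraries (vertical, log axis), with 1 point for each of 35 crystallins and 9 lens fibre genes (crosses). The basic beta crystallins lie at the lower left, with median ratios of 0.104 and 0.273, and most gammaM crystallins at the upper right.

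Lens fibre genes that are not crystallins were also low in these libraries. These were 20 genes of the table, from a list of fibre markers that includes the aquaporins of the lens, its connexins, its beaded filament proteins and its calpain, and 18 were tested. For the 9 of at least 5 FPKM on average, the ratio in control replicate 3 had a median of 0.295 (range 0.0885 to 0.459), and it was at most 0.5 in 9 of 9. In Lurasidone replicate 2 the median was 0.527, with 4 of 9 at most 0.5. Summed FPKM of the fibre list was 138.7, 192.1 and 46.25 in the control group and 216, 97.9 and 235 in the Lurasidone group, which overlap. The gene mipb, a lens aquaporin, had FPKM of 40.4, 49.1 and 9.73 in the control group and 61.3, 15.6 and 71.4 in the Lurasidone group. For bfsp2, a beaded filament protein, the values were 15.1, 31.3 and 4.33 in the control group and 29.4, 14.2 and 28 in the Lurasidone group. The calpain gene capn3a had 8.71, 21.1 and 1.20 in the control group and 26.3, 5.63 and 36.4 in the Lurasidone group. In all 3 genes control replicate 3 was the lowest control and Lurasidone replicate 2 the lowest of its group.

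Of the 18 tested fibre genes 1 rose and 1 fell, against 5.79% and 3.9% of all tested genes. The median log2 fold change of the 18 was 0.45, with 16 positive and 2 negative values. Without control replicate 3 the values were evenly split, with 9 positive and 9 negative. In that fit none was called higher and 1 was called lower, against 5.91% and 5.85% of all tested genes. The gene lgsn, a lens protein of the glutamine synthetase family, had FPKM of 5.29, 8.98 and 2.1 in the control group and 20.6, 10.5 and 19.4 in the Lurasidone group. All Lurasidone libraries of lgsn were above all controls, with a log2 fold change of 1.57 (limma, SE 0.39, adjusted p = 0.037) that was 1.12 without control replicate 3 (adjusted p = 0.051). The gene lim2.2, of the lens membrane protein family of lim2, fell by 1.00 on the log2 scale (SE 0.20, adjusted p = 0.015), from 2.4, 1.48 and 1.91 FPKM in the control group to 0.519, 0.604 and 0.262 in the Lurasidone group, on 3 to 32 fragments. The fibre markers gja3, a lens connexin, and capn3b, another calpain gene, were at 0 in every library. Since the aligner and the counter are not given, a value of 0 does not show that a gene was silent.

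Genes for lens regulators, which include transcription factors and RNA-binding proteins of eye development, had ratios closer to 1. In control replicate 3 the ratio of 17 such genes had a median of 0.945 (range 0.778 to 1.29), and in Lurasidone replicate 2 of 0.823. Of 25 tested, 1 rose (rbm24b) and 4 fell (sox2, six3b, six6a and six6b), against 5.79% and 3.9% of all tested genes. The median log2 fold change of the 25 was -0.17. FPKM of six3b were 29.3, 33.5 and 24.9 in the control group and 17.7, 11.2 and 17.3 in the Lurasidone group, or -0.90 on the log2 scale (limma, adjusted p = 0.026). Brain and retina also express sox2 and the six3 and six6 genes. The lens factors foxe3, needed for the lens epithelium, and hsf4, a heat shock factor that acts in fibre cells, were low. The fragments of foxe3 were 18, 17 and 1 in the control group and 18, 1 and 17 in the Lurasidone group, and those of hsf4 were 18, 29 and 11 in the control group and 30, 10 and 35 in the Lurasidone group. Both genes, named after their values were seen, were lowest in control replicate 3 and in Lurasidone replicate 2 within their groups, and neither passed the test. Other regulators of the list, also named after their values were seen, differed. In RNA of many organs the tissue that their fragments came from is not known, so their values need not be those of the lens. Among the controls, prox1a (FPKM 12.6, 8.87 and 13.7) and pax6a (10.4, 9.62 and 12.7) were highest in replicate 3, and pitx3 and mafa were not lowest there. Of the 17 regulators with a ratio, 12 were below 1 in control replicate 3 and 0 were at most 0.5.

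Lists of neighbouring tissues gave median ratios between 0.847 and 1.08 in control replicate 3. The median was 1.08 for 12 cone genes, 0.917 for 8 rod genes, 0.847 for 10 genes of Müller glia and pigment epithelium, 1.07 for 10 retinal neuron genes, 0.864 for 5 genes of cornea and surface epithelium and 1.04 for 12 brain neuron genes. Fast muscle genes were lower there, at 0.699 for 9 genes, of which 8 were below 1. No gene of these lists was at most 0.5 in control replicate 3. In Lurasidone replicate 2 the median was 0.774 for the retinal neuron genes (1 of 10 at most 0.5). It was 0.833 for the rod genes (2 of 8 at most 0.5) and 0.898 for the cone genes. The genes of Müller glia and pigment epithelium were not low there, with a median of 1.03 and 4 of 10 below 1. The medians there were 0.992 for the brain neuron genes, 1.06 for the fast muscle genes and 1.18 for the genes of cornea and surface epithelium. The rod opsin gene rho, named after its values were seen, had FPKM of 2703, 1647 and 1802 in the control group and 1552, 521 and 1307 in the Lurasidone group, lowest in Lurasidone replicate 2. The part of the low fibre and muscle genes of control replicate 3 in the crystallin values was not tested. Nor was that of the fibre, retinal neuron, rod and cone genes, with medians between 0.527 and 0.898 in Lurasidone replicate 2. Between the groups, 4 of 14 tested cone genes rose and 2 fell, 1 of 13 rod genes fell, 2 of 12 genes of Müller glia and pigment epithelium rose and 1 fell, and 4 of 15 retinal neuron genes fell. Of the fast muscle genes 3 of 9 rose, of the brain neuron genes 1 of 12 fell, and of 6 epithelial genes none was called. Without control replicate 3, 2 retinal neuron genes fell and 1 rose, 3 brain neuron genes fell, and 2 genes of Müller glia and pigment epithelium fell. Of all tested genes, 5.79% were higher and 3.9% lower with all libraries, and 5.91% and 5.85% without control replicate 3. A count of 1 in lists of this size is near these shares, and no list was tested as a set.

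Most crystallin genes lay in one cluster. On chromosome 9 (GRCz11, 21993092 to 22366295, 373 kb) 34 members lay in a row with gaps of at most 200 kb between neighbours, of which 25 were tested. Levels changed along the cluster. The 8 genes nearest its start, from crygm7 to crygm2e, each had group means below 2 FPKM, and so did the last 5 genes at its end, crygm2f, crygm5, crygs3, crygm3 and crygs4. The 21 genes between them had means of at least 5.43 FPKM in both groups, with crygm2d8 and crygm2d13 highest.

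**Figure D5:**
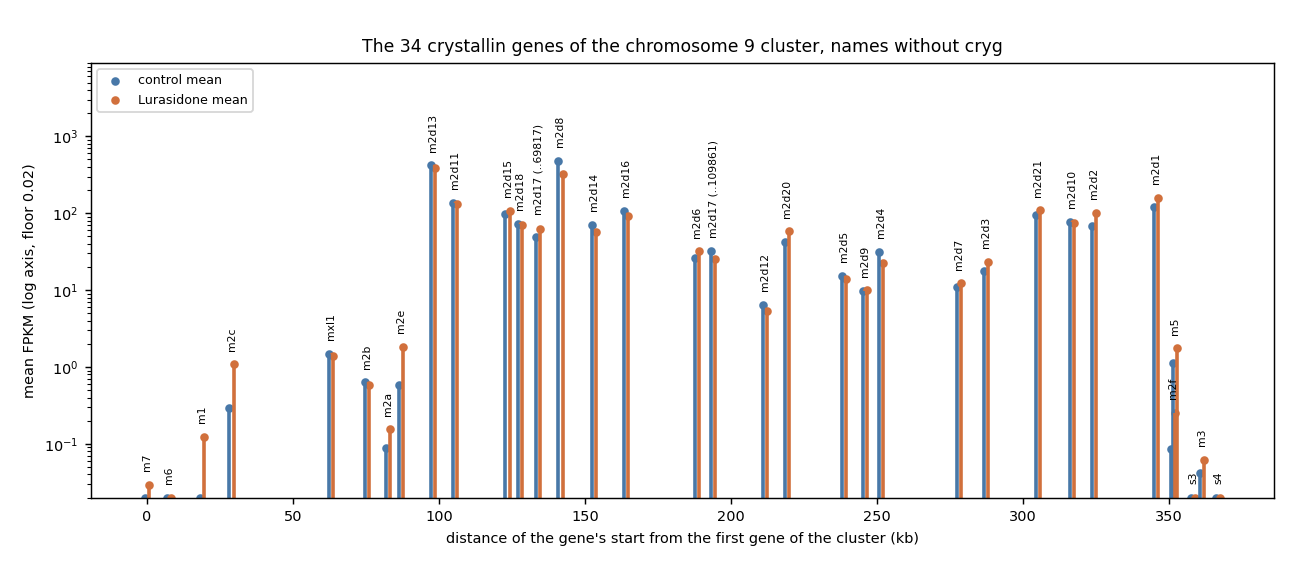
Mean FPKM in the control group and the Lurasidone group (log axis, values under 0.02 drawn at 0.02) of the 34 crystallin genes of the chromosome 9 cluster, against the distance of each gene's start from the first gene in kb. High genes lie in the middle, led by m2d8 and m2d13, and the paired bars of the groups are close at most genes.

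Each of the 4 tested basic beta genes shared a region of 19.0 to 30.7 kb with an acidic beta gene in opposite orientation. The pairs were cryba1l2 and crybb1l2 on chromosome 1 (44421920 to 44448387), crybb1 and cryba4 on chromosome 10 (44021147 to 44051808), crybb1l1 and cryba1l1 on chromosome 14 (46301973 to 46321016), and cryba1a and crybb1l3 on chromosome 15 (28086193 to 28107505). Mean FPKM was high in both genes of the pairs on chromosomes 10 and 14, high only in crybb1l2 on chromosome 1, and low in both genes on chromosome 15. The model of crybb1l3 lies wholly within that of cryba1a, on the opposite strand (8252 bases). Within the chromosome 9 cluster the model of crygm2d16 lies wholly within that of crygm2d14, on the same strand (1044 bases). Fragments in such overlaps, and fragments shared by nearly identical gammaM copies, could be counted for either gene, so that the split between single gammaM members is uncertain. The symbol crygm2d17 was given to 2 genes of the table, ENSDARG00000069817 and ENSDARG00000109861, which were kept apart here. A separate set of symbols names ENSDARG00000109861 crygm2d19.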

How the data were processed

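RNA-seq of 6 libraries of zebrafish larvae was analysed, 3 per group, grouped by the GEO labels. The authors deposited FPKM values per gene with the gene length, and the labels name the builds GRCz11 and danRer11. The aligner, the counter and the use of strand are not given in the sources used here. Fragments were read back from FPKM times length (100% of values whole within 0.05 of a fragment) and served for depth, shares and the limit of 3 fragments. These cover counting error only.

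Genes reaching 0.5 FPKM in 3 or more libraries (23409) were compared between the groups on log2(FPKM + 1) in limma 3.58.1 (R 4.3.3) with a variance trend and no covariate, and p-values were adjusted over all of them (Benjamini-Hochberg). DEGs also had to change by 1 or more on the log2 scale at an adjusted p not above 0.05. The p-values and intervals rest on the spread among these 3 libraries a group, which limma draws toward the spread of all tested genes. For genes of wide spread, such as crybb1, cryaa and crygn1, the SE is thus smaller than their own libraries alone would give. The intervals of such genes are narrower for that reason. The procedure was tested on simulated data with the same dispersion for every gene and no deviating library. It therefore does not show how the calls behave under the spread of the crystallins.

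Members and lists were chosen with earlier results of these data known. Values are given for members past the threshold, alpha crystallins, and the 3 highest and the extreme fold changes of each subfamily. Members varying over 4-fold within a group were named, some of them without the FPKM of each library. Most other genes named were past the threshold or the highest of the lens fibre list. The highest of the lens regulators were to be named too but were left out. The genes cryba2a, cryba2b, rho, foxe3, hsf4, prox1a, pax6a, pitx3, mafa, gja3, capn3b and the crystallins outside the test were named after their values were seen. All 57 identifiers were found in a separate symbol table, 47 with the same symbol. Alternatives were a fit without the trend, scaling by median ratios, a minimum of 5 FPKM or none, quantile normalization, a replicate block, only protein-coding genes, a pseudocount of 0.1, limma voom on fragments, equal summed FPKM of the other genes, a test of the fold threshold and leaving out each library. The fit without control replicate 3 was planned with those of the other libraries, but was singled out after seeing the data. Leaving out control replicate 3 together with Lurasidone replicate 2 was chosen after seeing the data. Figures were drawn with matplotlib 3.10.9.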

Additional observations from a re-analysis of the deposited data

How the results depend on the processing

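The count of 1 crystallin called higher became 0 under quantile normalization, the replicate block, a minimum of 5 FPKM or none, and a pseudocount of 0.1, became 3 under equal summed FPKM of the other genes (crygm2e, cryaa and crygn1), and lay between 0 and 0 when each library was left out in turn. The count of 0 called lower lay between 0 and 1 when each library was left out. The count of 0 DEGs became 1 under limma voom on fragments (cryaa), 2 under equal summed FPKM of the other genes (cryaa and crygn1) and 1 without control replicate 3 and Lurasidone replicate 2 (cryaa, while crygm2e had an adjusted p of 0.17), and it was 0 in the test of the fold threshold. The fit without control replicate 3 and Lurasidone replicate 2 was chosen after seeing the data, so its count is a description. The median log2 fold change of 0.35 lay between 0.21 and 0.57 under the alternatives that kept all libraries, between -0.16 (without control replicate 3) and 0.71 (without control replicate 2) when each was left out, and at 0.00 without both of the low libraries. The cause of these shifts was not tested.

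Deviations of equal-numbered libraries from their group means correlated at 0.118, -0.103 and 0.006. Those of unequal-numbered libraries correlated between -0.215 and 0.189. Such correlations cannot show whether the replicate numbers pair the libraries, so both fits are given. With the replicate block 0 crystallins were called higher, and the smallest adjusted p was 0.082.

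Of 370 values of 22 named crystallins under 17 alternatives, 332 kept their direction and 38 turned, 12 of these without control replicate 3 and 26 in all fits without 1 library. Leaving out each library in turn, log2 fold changes that turned ranged from -0.21 to 0.28 for cryba1a, -0.16 to 1.53 for cryba1b, -0.37 to 1.28 for cryba1l1, -0.01 to 1.52 for cryba4, -0.48 to 1.79 for crybb1, -0.55 to 1.15 for crybb1l2, -0.53 to 0.55 for crybb1l3, -0.14 to 0.61 for crygn2, -0.61 to 0.26 for crygm2d12, -0.48 to 0.61 for crygm2d13, -0.70 to 0.39 for crygm2d14, -0.40 to 0.60 for crygm2d18, -0.17 to 0.97 for crygm2d3, -0.90 to 0.12 for crygm2d4, -0.29 to 0.74 for crygm2d7, -0.91 to 0.11 for crygm2d8 and -0.11 to 0.65 for crygm5. Without control replicate 3 and Lurasidone replicate 2, the turned values were -0.14 for crygn2, -0.33 for crygm2d13, -0.02 for crybb1l2, -0.26 for crygm2d18, -0.38 for crygm2d3, -0.33 for crygm2d7 and -0.37 for crybb1l3. Quantile normalization turned crygm2d14 (0.09), crybb1l3 (-0.03) and cryba1a (-0.02), and equal summed FPKM of the other genes turned crygm2d14 (0.05) and crygm2d12 (0.00).

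With 3 libraries a group and a control range of 2.27-fold to 23.9-fold, moderate changes of most crystallins could not be measured, and for members under about 1 FPKM the counts of fragments limit precision.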

Other observations

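The small heat shock proteins outside the lens crystallins, which share the alpha crystallin domain, were read beside cryaa. Of 9 tested genes 3 rose in the Lurasidone group and none fell, against 5.79% and 3.9% of all tested genes. The gene hspb6 had FPKM of 8.17, 6.45 and 6.78 in the control group and 24.3, 18.8 and 21.7 in the Lurasidone group, with a log2 fold change of 1.47 (limma, SE 0.16, adjusted p = 0.0016) and of 1.44 without control replicate 3. The log2 fold change of hspb7 was 0.91 (adjusted p = 0.016) and that of hspb15 was 0.71 (adjusted p = 0.037). Without control replicate 3 hspb15 did not pass (limma, adjusted p = 0.071), and 2 of the 9 genes were called higher, against 5.91% of all tested genes. The groups of hspb6, hspb7 and hspb15 did not overlap, and 17.1% of all tested genes were likewise higher without overlap. Their highest control value was 1.27, 1.46 and 1.44 times the lowest. Over the 5 small heat shock genes of at least 5 FPKM, called or not, the median ratio in control replicate 3 was 0.934.

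Of 5 tested genes with a crystallin name but not among the crystallins taken here by symbol, crybg1b fell, against 3.9% of all tested genes. Its FPKM were 3.61, 3.76 and 3.44 in the control group and 2.02, 2.01 and 1.67 in the Lurasidone group, with a log2 fold change of -0.67 (limma, SE 0.16, adjusted p = 0.031).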
